A study of Mus musculus with 8 samples.

Results

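Oxidative phosphorylation is run by 5 protein complexes of the inner mitochondrial membrane, and the nuclear genes that encode their subunits, together with factors that assemble complexes I and II, were followed here in CD8+ T cells treated with GC7. The members were the protein-coding genes whose symbols begin with Nduf, Uqcr or Atp5 or with Cox followed by a number from 4 to 8, plus Cyc1, Cycs, Sdha to Sdhd and Sdhaf1 to Sdhaf4. This gave 100 of the 55536 genes in the count files, 22028 of which are protein coding, and 94 of the 100 members were among the 11189 genes expressed highly enough to be tested. By known role they were 21 core subunits, 56 accessory subunits, 8 alternative tissue-restricted isoforms, 14 assembly or coupling factors (assembly factors below, with Cox7a2l and Atp5s among them) and cytochrome c (Cycs). The question was how GC7 compared with Mock by respiratory complex and by class of member.

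OT-1 CD8+ T cells, which carry 1 transgenic T cell receptor on a Rag1-deficient C57BL/6 background and recognise the ovalbumin peptide SIINFEKL, came from lymph nodes of donor mice whose ages the labels do not give. All cultures were activated with 100 nM peptide for 2 days and expanded for 2 days in 20 ng/ml IL-2. During expansion, 4 cultures received 10 µM GC7, a spermidine analogue that inhibits the enzyme DHPS and with it the hypusination of the translation factor eIF5a, and 4 received the acetic acid vehicle (Mock). Total RNA was extracted from equal numbers of cells and gave 17528776 to 25284730 counts per library, and depth overlapped between the groups. GC7 is a chemical inhibitor with reported effects beyond eIF5a, so these libraries show the response to the drug and not to the loss of eIF5a alone.

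The labelled cell type was checked against marker genes. All 8 CD8 T cell markers were expressed, Cd8a averaging 703 ± 27.6 CPM (read counts scaled to library size with TMM factors, ± SD of 4 libraries) under Mock and 978 ± 30.4 CPM under GC7. Cd8a rose and 5 of the 8 fell, Prf1 (perforin) by 1.46, Gzmb (granzyme B) by 0.61, Trac by 0.38, Cd3g by 0.37 and Cd3e by 0.23 on the log2 scale, and the summed level was 6700 to 8053 CPM in Mock and 4565 to 6119 CPM in GC7. Of 5 B cell markers, Ms4a1 and Pax5 had no count in any library, and the summed level was 7.02 to 10.1 CPM in Mock and 4.63 to 5.93 CPM in GC7. The 8 myeloid and dendritic cell markers summed to 4.71 to 6.38 CPM in Mock and 0.919 to 1.32 CPM in GC7, mostly Xcr1. Cd4 stood at 0.201 and 0.254 CPM on average, and of the CD4 list Zbtb7b carried nearly all of the 93.1 to 97.5 CPM in Mock and 75.6 to 85.0 CPM in GC7. Stromal markers summed to 52.3 to 57.0 CPM in Mock and 30.7 to 32.6 CPM in GC7, nearly all from Pecam1. The part of these markers in the results was not tested. In bulk RNA, fewer cells of a type and less RNA per cell cannot be told apart.

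Electrons enter the respiratory chain at complex I (NADH dehydrogenase) and complex II (succinate dehydrogenase), pass through coenzyme Q, complex III and cytochrome c, and reach oxygen at complex IV. The proton gradient this builds drives complex V, the ATP synthase. Complexes I, III, IV and V combine subunits from both genomes, complex II is wholly nuclear, and core subunits carry the redox centres or catalysis while accessory subunits surround them. Assembly factors put a complex together and are mostly absent from the finished enzyme, and T cells rely on mitochondrial respiration as well as glycolysis as they divide.

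Across all members RNA moved little, and the core subunits and the assembly factors had medians on opposite sides of 0. At a false discovery rate (FDR, the Benjamini-Hochberg adjusted p from edgeR's quasi-likelihood test over all genes tested) under 0.01, 15 of the 94 members were lower in GC7, beside 23.5% of all genes tested, and 13 were higher, beside 23%. In percent this was 16.0% lower and 13.8% higher, so both shares were below those over all genes, although the higher share was not when Mock replicate 2 was left out. The median log2 fold change of the members was -0.0088, compared with 0.018 over all genes. A change of more than 2-fold was met by 2 of the 94 members in the lower direction, Ndufv3 and Cox7a1, where all genes gave 5.31%. It was met by 3 of the 94 in the higher direction, Sdhaf1, Cox6b2 and Cox6a2, where all genes gave 3.17%. Sdhaf1 and Cox6a2 entered the test through GC7 and Cox7a1 through Mock, in each case the group where the gene was higher. In all 28 members that passed the test, the 4 GC7 libraries lay wholly below or wholly above the 4 Mock libraries. Passing the test makes such separation likely, so it is not separate support. Counting members with such separated groups whether or not they passed, 23 were below and 15 above, which is 24.5% and 16.0% of the members against 27.5% and 28.1% of all genes.

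**Figure D1:**
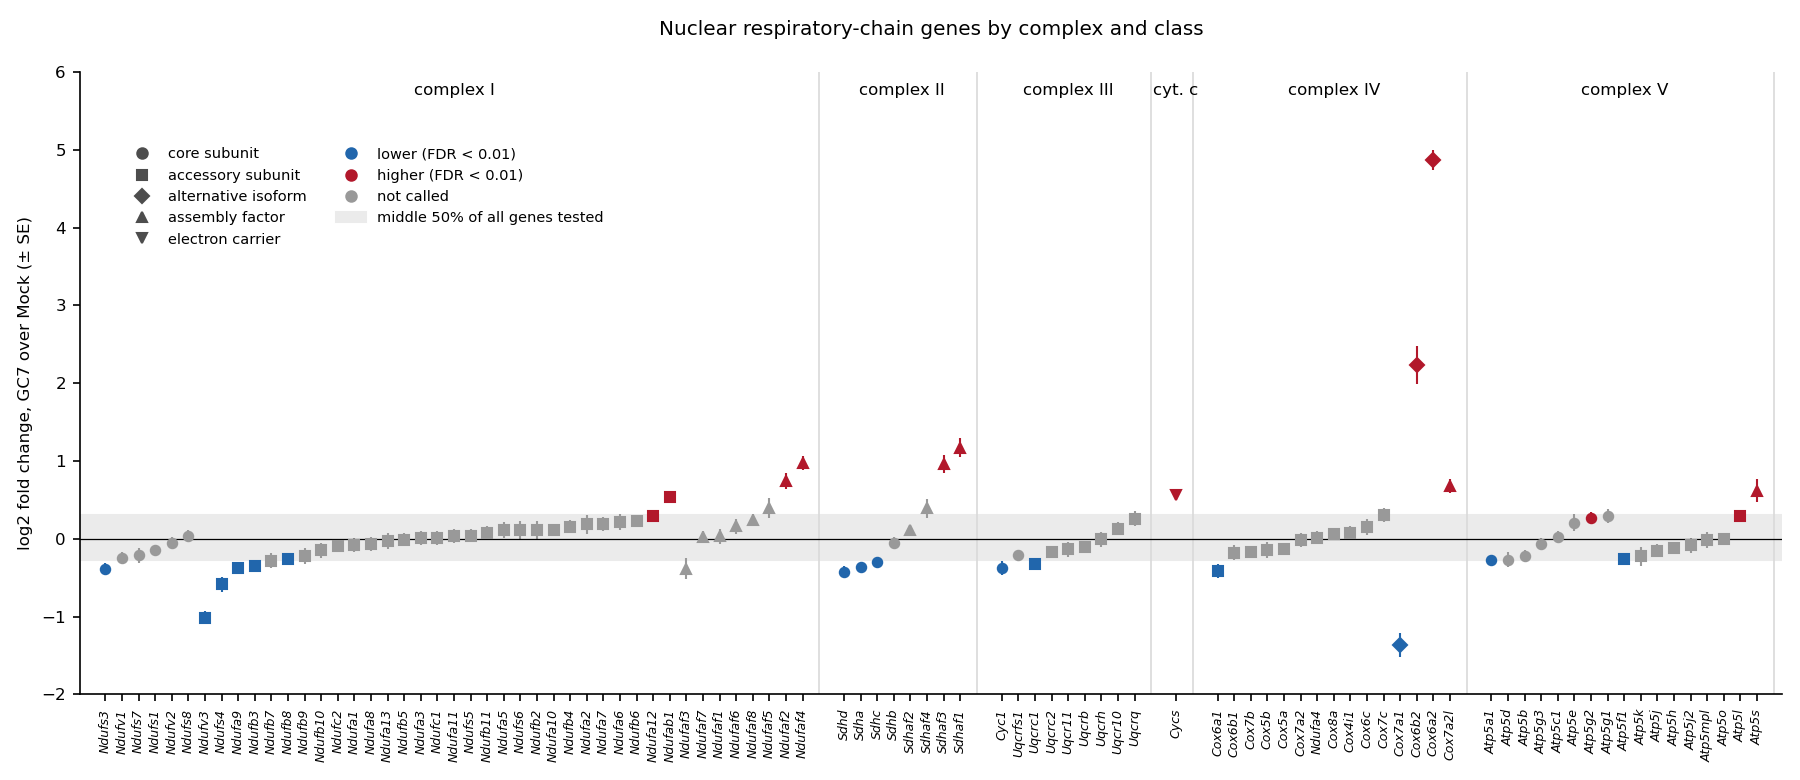
Log2 fold change (GC7 over Mock, ± SE from edgeR, 4 libraries per group) of 93 of the 94 tested members, ordered within each complex by class and value, with marker shape giving the class and colour the result at FDR under 0.01. The grey band holds the middle 50% of all 11189 genes tested: most subunits lie inside it, 13 of 14 assembly factors lie above 0, and the largest values belong to alternative isoforms of complex IV.

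By class, 6 of 21 core subunits were lower (28.6%) and 1 higher (4.76%), with a median log2 fold change of -0.21. Of 55 accessory subunits tested, 8 were lower (14.5%) and 3 higher (5.45%), with a median of -0.014. Counts by class and complex, here and below, can be read beside the 23.5% of all genes that were lower and the 23% that were higher. None of the 14 assembly factors was lower and 6 were higher, with a median of 0.39, and 13 of the 14 had a positive value, although Ndufaf7 and Ndufaf1 turned negative when some single libraries were left out. The median Mock level per kilobase of exon was 66.9 CPM per kb over the core and accessory subunits and 6.11 CPM per kb over the assembly factors. The counts of higher members depended on 1 library. Mock replicate 2 was the highest of the 4 Mock libraries for 87 of the 94 members, against 38.7% of all genes tested. Without it all 15 lower and all 13 higher members passed again, together with 1 more lower (Ndufb7) and 17 more higher members, which gave 16 lower and 30 higher, and the medians were 0.085 over all members, -0.14 over core subunits, 0.085 over accessory subunits and 0.49 over assembly factors.

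**Figure D2:**
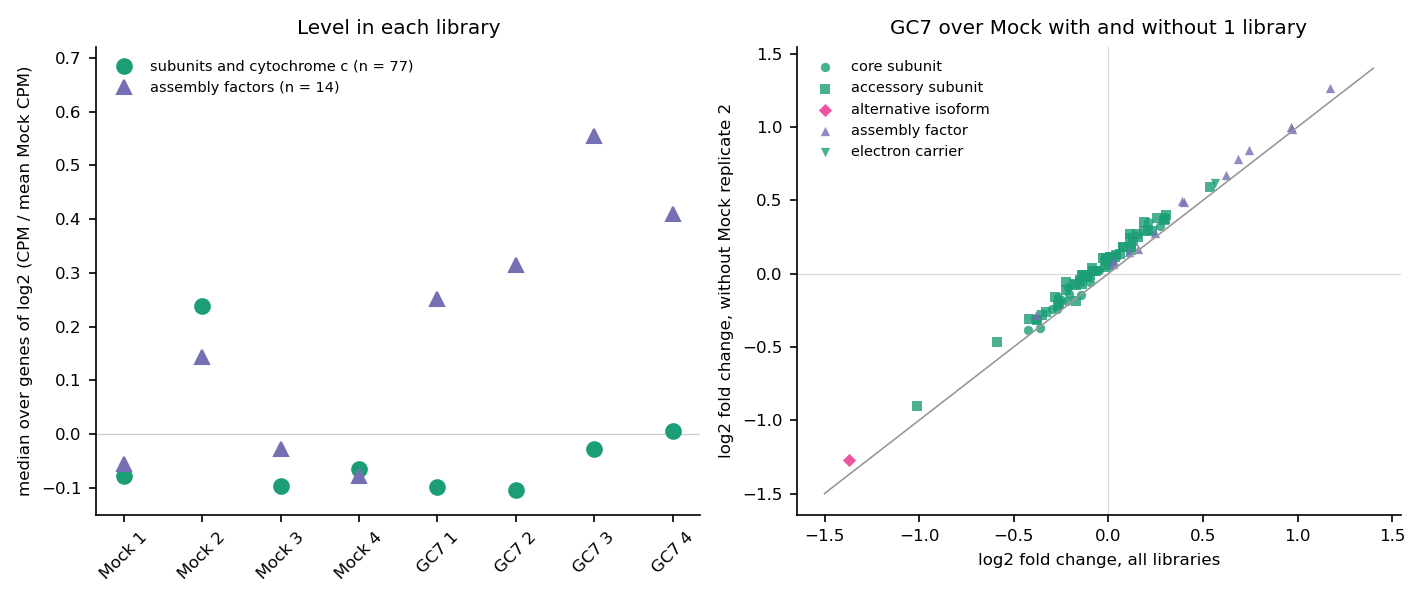
Left, for each library, the median over genes of the log2 ratio of its CPM to the mean Mock CPM, for 77 subunits including cytochrome c (circles) and 14 assembly factors (triangles); Mock replicate 2 lies at 0.24 for the subunits, above every other library, while all 4 GC7 libraries lie above all 4 Mock libraries for the assembly factors. Right, the log2 fold change of 92 members with all libraries and without Mock replicate 2 (2 members beyond 1.5 log2 units are left out), where nearly all points lie above the line of equality.

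For the subunits as a set, the median level relative to the Mock mean was -0.078, 0.24, -0.097 and -0.066 log2 units in Mock replicates 1 to 4 and -0.099, -0.10, -0.028 and 0.0060 in GC7. The GC7 libraries lay close to Mock replicates 1, 3 and 4 and below Mock replicate 2. The assembly factors gave -0.056, 0.14, -0.027 and -0.079 in Mock and 0.25, 0.31, 0.55 and 0.41 in GC7, so that the groups did not overlap. As a share of all counts, the 94 members took 1.09% to 1.27% in Mock and 1.16% to 1.20% in GC7.

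Complex I passes electrons from NADH to coenzyme Q and is the largest of the complexes, with 44 members here. Of its 36 subunits, 6 were lower and 2 higher, and of its 8 assembly factors 2 were higher and none lower. The largest decrease was that of Ndufv3 (chr17:31520115-31531331, plus strand), an accessory subunit of the module that oxidises NADH. Its CPM in replicates 1 to 4, the order used throughout, was 146, 193, 147 and 149 in Mock and 74.5, 79.3, 81.5 and 79.7 in GC7. Each GC7 library lay below each Mock library, Mock replicate 2 being the highest of all, and the log2 fold change was -1.01 (SE 0.089, adjusted p = 1.37e-06). Without Mock replicate 2 it was -0.90 with an adjusted p of 1.75e-08, so the RNA was still lower but no longer by more than 2-fold.

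Among the core subunits of complex I, Ndufs3, part of the arm that leads electrons towards the quinone, fell most. It had 68.8, 86.4, 71.1 and 74.0 CPM in Mock and 55.4, 59.9, 55.4 and 58.4 CPM in GC7, with no overlap, and a log2 fold change of -0.39 (SE 0.077, adjusted p = 0.000876). At the other end of the class, Ndufs8, an iron-sulphur subunit, had 56.8, 70.7, 55.4 and 58.2 CPM in Mock and 62.2, 61.8, 62.9 and 60.5 CPM in GC7. These values overlapped, at 0.036 (SE 0.079, adjusted p = 0.711). The other core subunits did not pass, with log2 fold changes that included -0.25 for Ndufv1, -0.21 for Ndufs7, -0.15 for Ndufs1 and -0.051 for Ndufv2. Ndufs1 shares exonic sequence with the abundant gene Eef1b2 on the opposite strand, which rose by 0.67, and the strand setting of the counting is not stated.

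Besides Ndufv3, 4 accessory subunits of complex I fell, at -0.59 for Ndufs4, -0.38 for Ndufa9, -0.35 for Ndufb3 and -0.26 for Ndufb8. In the opposite direction, Ndufab1, the mitochondrial acyl carrier protein that also serves fatty acid and lipoate synthesis, had 53.2, 58.6, 50.6 and 48.7 CPM in Mock and 77.3, 74.1, 80.2 and 75.0 CPM in GC7. All GC7 libraries were above all Mock libraries, and the log2 fold change was 0.54 (SE 0.069, adjusted p = 3.22e-05). Ndufa12 also rose, by 0.30, but did not pass when any 1 of 5 libraries was left out (Mock replicates 1, 3 and 4 and GC7 replicates 2 and 4), and Ndufb8 did not pass by library totals or without Mock replicate 4 or GC7 replicate 1 or 2. The remaining 22 accessory subunits did not pass and lay between -0.28 (Ndufb7) and 0.23 (Ndufb6).

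Ndufaf4, an assembly factor that acts early in building the arm that projects into the matrix, had the largest increase in complex I. Its RNA was at 11.6, 10.8, 9.60 and 10.1 CPM in Mock and 21.8, 21.5, 19.3 and 20.0 CPM in GC7. Every GC7 library was well above every Mock library, with a log2 fold change of 0.97 (SE 0.088, adjusted p = 1.66e-06). Ndufaf2, a late-acting assembly factor and paralogue of Ndufa12, rose by 0.74 (adjusted p = 7.67e-05). The lowest value belonged to Ndufaf3, a partner of Ndufaf4 in assembly, which had 19.2, 27.3, 22.4 and 22.0 CPM in Mock and 15.3, 14.6, 20.5 and 19.5 CPM in GC7. Its groups overlapped and it did not pass, at -0.38 (SE 0.13, adjusted p = 0.0232). The other 5 were at 0.023 for Ndufaf7, 0.031 for Ndufaf1, 0.16 for Ndufaf6, 0.25 for Ndufaf8 and 0.40 for Ndufaf5, and none of these passed. Ndufaf3 overlaps Impdh2 on the opposite strand, which had far more counts, 57066 against 3406 over all libraries.

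Complex II oxidises succinate to fumarate and so joins the tricarboxylic acid cycle to the chain. All 8 of its members were tested, and its subunits and assembly factors took opposite signs, negative for 4 of 4 subunits and positive for 4 of 4 assembly factors, with Sdhb turning positive by library totals (0.043). Sdhd, a membrane anchor subunit, fell most, from 117, 129.7, 121 and 115 CPM in Mock to 87.8, 82.1, 93.7 and 96.4 CPM in GC7. The groups did not overlap and the log2 fold change was -0.42 (SE 0.068, adjusted p = 0.000185). Sdha, the flavoprotein that binds succinate, fell with -0.36 and Sdhc, the other membrane anchor, with -0.30. Sdhb, the iron-sulphur subunit, was the exception, at 130.0, 156, 123 and 131 CPM in Mock and 128, 127, 132 and 133 CPM in GC7. Its groups overlapped, at -0.054 (SE 0.073, adjusted p = 0.546), and its sign turned without Mock replicate 2, to 0.024.

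Sdhaf1, which helps insert iron-sulphur clusters into Sdhb, had low RNA, at 2.77, 3.32, 2.66 and 2.51 CPM in Mock and 6.43, 6.42, 6.47 and 6.14 CPM in GC7. The GC7 libraries were tightly grouped above all Mock libraries, and the log2 fold change was 1.17 (SE 0.13, adjusted p = 7.46e-06), a 2.25-fold difference. Sdhaf1 was over 3 CPM in 4 GC7 libraries and 1 Mock library, so it entered the test through the group where it was higher. Sdhaf3, another factor for the Sdhb clusters, rose by 0.96 (adjusted p = 1.94e-05). Sdhaf2, which helps attach flavin to Sdha, had 32.2, 36.3, 32.6 and 33.0 CPM in Mock and 35.4, 37.5, 36.9 and 34.6 CPM in GC7. These values overlapped and did not pass, at 0.11 (SE 0.066, adjusted p = 0.185). Sdhaf4, a chaperone of flavinated Sdha, was at 0.39 and passed without Mock replicate 2, at 0.50 with an adjusted p of 0.00297. Scaling by library totals instead of TMM left Sdha and Sdhd lower but not Sdhc, and made Sdhaf4 higher besides Sdhaf1 and Sdhaf3.

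**Figure D3:**
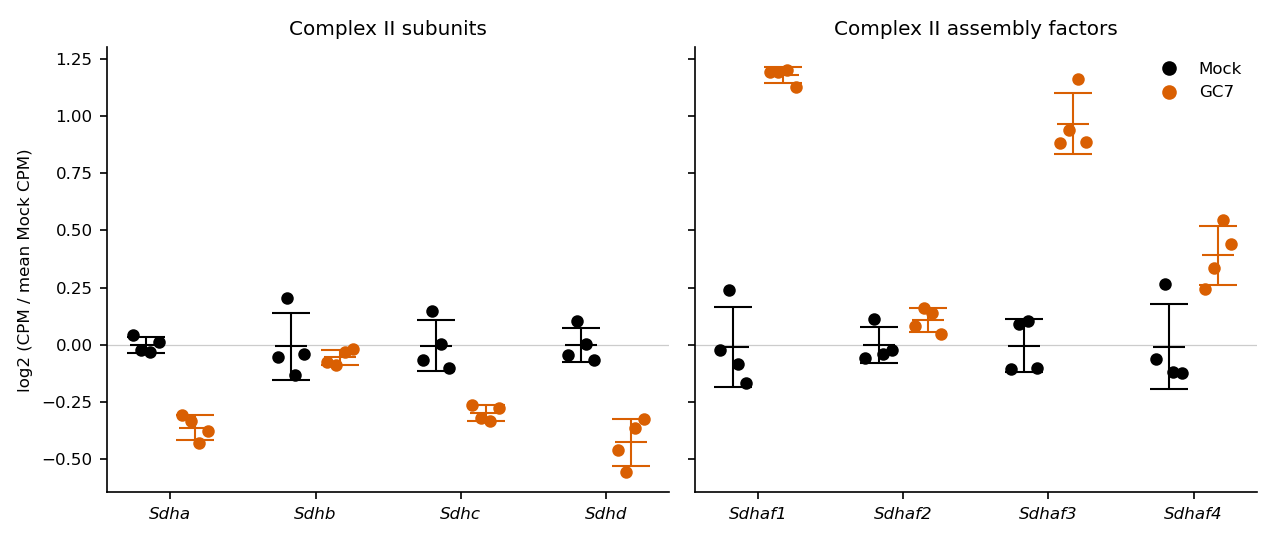
Level of each complex II subunit (left) and complex II assembly factor (right) in each library, as log2 of CPM over the gene's mean Mock CPM; points are libraries, with mean and SD as bars (n = 4 per group). GC7 lies below Mock without overlap for Sdha, Sdhc and Sdhd, overlaps it for Sdhb, and lies above it without overlap for Sdhaf1 and Sdhaf3.

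The 250 bases before the transcription start were searched in RefSeq (GRCm38.p6) for short motifs of regulators known from respiratory genes, on both strands and with overlapping matches counted. A window was found for 81 of the 99 distinct member symbols. A gene counted as holding a motif if any of its windows did. The motif of nuclear respiratory factor 1 (NRF1), GCGCA and GCGC separated by any 1 base, was present in 14 of 81 members (17.3%). It was present in 4.23% of all 27025 RefSeq genes with a window and in 10.3% of 8331 tested genes. The ETS motif that GABP binds, CCGGAAG, was present in 16 of 81 members (19.8%). It was in 7.83% of all genes and 17.7% of tested genes, so that most of its difference from all genes was shared by expressed genes in general. By outcome, the NRF1 motif was in 3 of 12 lower, 2 of 12 higher and 9 of 55 other tested members, and by class in 4 of 16 core subunits, 9 of 47 accessory subunits, 1 of 13 assembly factors and 0 of 4 alternative isoforms. The ETS motif was in 3 of 12 lower, 2 of 12 higher and 11 of 55 other tested members, and in 3 of 16 core subunits, 9 of 47 accessory subunits, 4 of 13 assembly factors and 0 of 4 alternative isoforms. The YY1 motif AAGATGGC was in 1 of 81 members (1.23%, against 1.83% of all and 2.59% of tested genes), the E-box CACGTG in 6 (7.41%, against 6.86% and 10.3%) and the TATA motif TATAAA in 6 (7.41%, against 14.3% and 7.30%). Of the regulators themselves, Nrf1 fell by 0.31, while among the GABP subunits Gabpa fell by 0.44 and Gabpb2 by 0.50 and Gabpb1 rose by 0.61, Gabpa sharing exonic sequence with the member Atp5j on the opposite strand.

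The stretches before Ndufaf4 and Sdhaf3 are printed here with the matched motif in capitals, since they hold different motifs. Both genes are assembly factors, of complex I and complex II, that rose to a similar extent. The other assembly factors that rose, Ndufaf2, Sdhaf1, Cox7a2l and Atp5s, held neither the NRF1 nor the ETS motif. For Ndufaf4 the 250 bases lie at chr4:24897833-24898082 on the plus strand and hold the NRF1 motif. For Sdhaf3 the 236 bases at chr6:6955768-6956003 on the plus strand end 14 bases short of the RefSeq start, where an exon begins in the Ensembl annotation, and hold the ETS motif.
Ndufaf4: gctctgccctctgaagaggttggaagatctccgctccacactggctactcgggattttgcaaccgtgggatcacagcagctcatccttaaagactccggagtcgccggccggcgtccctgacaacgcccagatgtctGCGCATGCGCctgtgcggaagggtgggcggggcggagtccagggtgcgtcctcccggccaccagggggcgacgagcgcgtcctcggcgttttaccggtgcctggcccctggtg
Sdhaf3: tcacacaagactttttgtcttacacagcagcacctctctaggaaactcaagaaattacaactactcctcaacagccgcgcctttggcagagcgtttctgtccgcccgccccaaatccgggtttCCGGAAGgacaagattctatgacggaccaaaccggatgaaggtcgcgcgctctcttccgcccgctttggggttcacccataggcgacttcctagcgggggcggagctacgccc

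Complex III moves electrons from coenzyme Q to cytochrome c. Of its 9 members, 2 were lower (22.2%, against 23.5% of all genes) and none higher, with a median of -0.13. Cyc1, the haem-bearing cytochrome c1, fell from 122, 150.3, 123 and 131 CPM in Mock to 101, 111, 86.7 and 105 CPM in GC7. Its groups did not overlap, and the log2 fold change was -0.38 (SE 0.088, adjusted p = 0.00272). The Rieske iron-sulphur protein Uqcrfs1 had 160.4, 188, 159 and 154 CPM in Mock and 142, 144, 142 and 146 CPM in GC7, also without overlap, but did not pass at -0.21 (SE 0.068, adjusted p = 0.0188). Uqcrc1, a large accessory subunit on the matrix side, fell from 173, 202, 168 and 169.8 to 146, 143, 133 and 146 CPM, with a log2 fold change of -0.33 (SE 0.070, adjusted p = 0.00154). Its partner Uqcrc2 was at -0.17 and did not pass. Uqcrq, a small accessory subunit, lay at the other end with 137, 182, 132 and 136 CPM in Mock and 169.7, 171, 182 and 179.7 CPM in GC7. Mock replicate 2 alone overlapped the GC7 range, the value was 0.26 (SE 0.094, adjusted p = 0.0309), and without that library it was 0.38 with an adjusted p of 2.27e-05. The other 4, Uqcr11, Uqcrb, Uqcrh and Uqcr10, lay between -0.13 and 0.13 and did not pass.

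Cytochrome c (Cycs), the soluble carrier between complexes III and IV that also triggers the apoptosome when released, rose. Its RNA was at 139, 153, 126 and 133 CPM in Mock and 206, 204, 196 and 207 CPM in GC7. The GC7 libraries were all above the Mock libraries and varied little, with a log2 fold change of 0.56 (SE 0.067, adjusted p = 1.62e-05). Cyc1 and Cycs, neighbours in electron transfer, therefore lay on opposite sides of 0 and each passed the test, although by library totals Cyc1 did not pass (-0.28, adjusted p = 0.0119). Annotated near-identical copies of Cycs held 25.9% as many counts as the gene itself, and with them added the value was 0.58.

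Complex IV passes electrons to oxygen, and 15 of its 20 members were tested. Of 11 ubiquitous subunits, 1 was lower (9.09%, against 23.5% of all genes) and none higher, with a median of -0.020. That gene was Cox6a1, the somatic form of a regulatory subunit, which fell from 411, 544, 399 and 439 CPM in Mock to 338, 335, 322 and 347 CPM in GC7. The groups did not overlap and the log2 fold change was -0.42 (SE 0.091, adjusted p = 0.00176). Cox6a1 also had the highest Mock level per kilobase of all members, 639 CPM per kb, ahead of Cox8a at 449 and Atp5b at 335 CPM per kb. At the upper end, Cox7c had 226, 287, 220.0 and 225 CPM in Mock and 279.8, 277, 328 and 296 CPM in GC7, where Mock replicate 2 alone overlapped. Its value was 0.30 (SE 0.091, adjusted p = 0.0127), and without that library 0.40 with an adjusted p of 0.00013. The main scaffold subunits did not pass, at 0.077 for Cox4i1, -0.14 for Cox5a and -0.14 for Cox5b. Nor did Cox6c, Cox7b, Cox8a or Ndufa4, a subunit once assigned to complex I, at 0.15, -0.17, 0.060 and 0.014.

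The largest differences of all members were in complex IV isoforms that are normally restricted to certain tissues. Cox6a2, the heart and skeletal muscle form of Cox6a (chr7:128205435-128206387, minus strand), was low in Mock at 2.41, 2.08, 1.68 and 2.46 CPM and at 51.5, 68.0, 66.7 and 65.2 CPM in GC7. The lowest GC7 library was far above the highest Mock library, and the log2 fold change was 4.87 (SE 0.13, adjusted p = 6.91e-11), a 29.2-fold difference. As a share of the counts of Cox6a1 and Cox6a2 together, Cox6a2 made up 0.485% ± 0.0997 in Mock and 15.8% ± 1.79 in GC7 (SD, n = 4, p = 0.0286 in a two-sided exact permutation test, adjusted p = 0.0429 over 9 shares). This p is the smallest that 4 against 4 libraries allow, and shares do not depend on the scaling between libraries.

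Cox6b2, the testis form of Cox6b (chr7:4751792-4753094, minus strand), had 9.69, 10.5, 11.1 and 11.0 CPM in Mock and 35.3, 33.8, 80.7 and 49.5 CPM in GC7. All GC7 libraries lay above all Mock libraries but varied widely, GC7 replicate 3 being the highest, and the log2 fold change was 2.23 (SE 0.24, adjusted p = 8.11e-06). Its ubiquitous counterpart Cox6b1 had 126, 168, 127 and 133 CPM in Mock and 110.0, 119, 129.8 and 129.6 CPM in GC7, overlapping, at -0.18 (SE 0.095, adjusted p = 0.118). The Cox6b2 share of the pair went from 7.18% ± 0.943 to 28.1% ± 7.19 (SD, n = 4, p = 0.0286 in the same exact permutation test, adjusted p = 0.0429), from a range of 5.87% to 8.03% in Mock to one of 22.1% to 38.3% in GC7.

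Cox7a1, the heart and muscle form of Cox7a (chr7:30184144-30186078, plus strand), moved the other way. It was at 4.72, 6.12, 4.89 and 4.81 CPM in Mock and 2.14, 1.82, 2.34 and 1.71 CPM in GC7. Every GC7 library was below every Mock library, with a log2 fold change of -1.37 (SE 0.15, adjusted p = 1.12e-05). The liver-type counterpart Cox7a2 had 77.4, 98.5, 75.5 and 74.9 CPM in Mock and 75.7, 77.1, 85.0 and 84.1 CPM in GC7, overlapping, at -0.020 (SE 0.090, adjusted p = 0.861). Its sign was positive without Mock replicate 2 (0.085) and by library totals (0.077). The Cox7a1 share of the pair fell from 5.93% ± 0.160 to 2.43% ± 0.352 (SD, n = 4, exact permutation p = 0.0286, adjusted p = 0.0429). Cox6a2 was over 3 CPM in the GC7 libraries alone and Cox7a1 in the Mock libraries alone, so each entered the test through the group where it was higher.

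**Figure D4:**
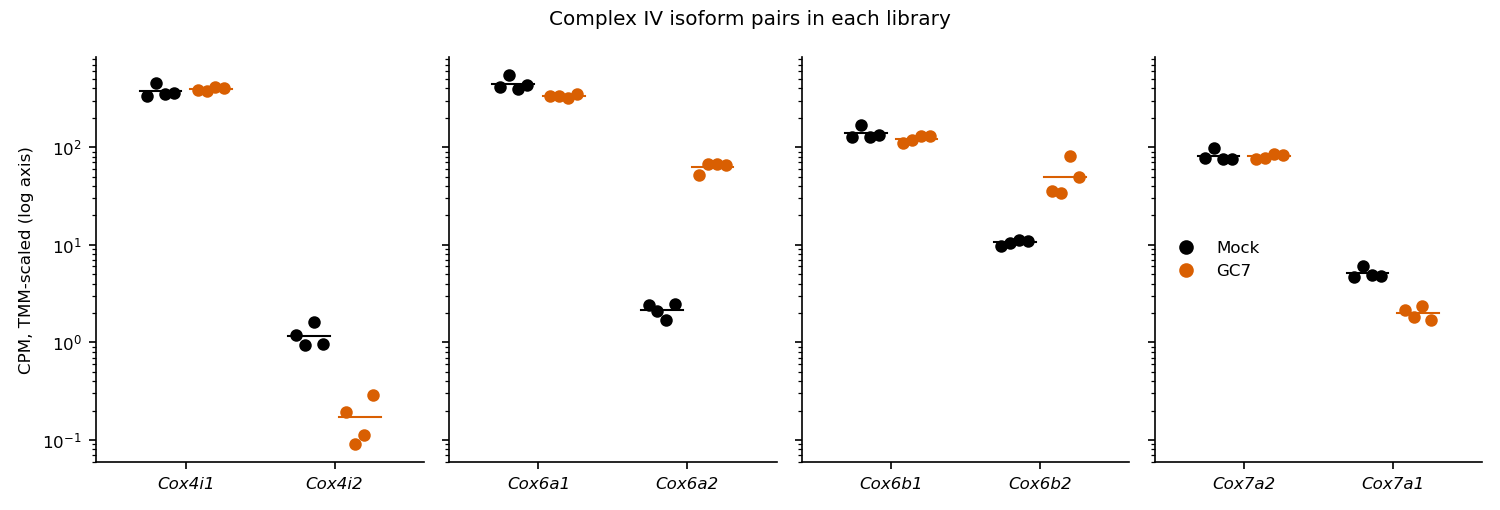
CPM after TMM scaling on a log axis for 4 pairs of complex IV isoforms, the ubiquitous form first in each panel; points are libraries and lines are means (n = 4 per group). Cox6a2 and Cox6b2 are higher in GC7 without overlap and Cox7a1 and Cox4i2 lower, while Cox4i1, Cox6b1 and Cox7a2 overlap between the groups.

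Cox4i2, the lung and low-oxygen form of Cox4, did not pass the expression filter but had 19 to 35 counts per Mock library and 2 to 7 per GC7 library. With looser filters it was tested on these few counts and was lower, at a log2 fold change of -2.69. Its share of Cox4 counts was 0.322% ± 0.114 in Mock and 0.0434% ± 0.0222 in GC7 (SD, n = 4, exact permutation p = 0.0286, adjusted p = 0.0429). Cox8b and Ndufa4l2 were near 0, with 20 and 22 counts over all 8 libraries and no difference in share detectable at this depth (exact permutation p = 0.400 and 0.914, n = 4). Cox7b2 and Cox8c had no count, nor had the second gene model named Atp5o, a readthrough annotation over the tested Atp5o. Cox7a2l, which helps join complexes III and IV into supercomplexes, was at 161, 215, 177 and 168 CPM in Mock and 276, 270.5, 319 and 292 CPM in GC7. It rose without overlap, at 0.68 (SE 0.092, adjusted p = 4.83e-05), and had by far the highest level per kilobase of the assembly factors at 122 CPM per kb in Mock.

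Complex V makes ATP, with a catalytic head (F1) turned by a ring of c subunits in the membrane and held by a peripheral stalk. Of 17 members tested, 2 were lower (11.8%) and 3 higher (17.6%), against 23.5% and 23% of all genes. The median was -0.068 and turned to 0.040 without Mock replicate 2. All 5 calls depended on single libraries, and without GC7 replicate 3 none of the 3 higher members passed. Atp5a1, the alpha subunit of the head, fell from 816, 863, 782 and 788 CPM in Mock to 705, 707, 607 and 672 CPM in GC7. There was no overlap, and the log2 fold change was -0.27 (SE 0.070, adjusted p = 0.00501). The catalytic beta subunit Atp5b was at -0.22 with an adjusted p of 0.017, and Atp5d at -0.27 with 0.0246, so neither passed. Atp5c1 and Atp5e of the head were at 0.021 and 0.21. Atp5f1, the b subunit of the stalk, fell from 342, 379.9, 327 and 320.4 CPM in Mock to 282, 285, 283 and 292 CPM in GC7, with a log2 fold change of -0.26 (SE 0.065, adjusted p = 0.00409). It was the member of 4 stalk subunits tested that passed, the others being Atp5h, Atp5j and Atp5o at -0.12, -0.15 and -0.00069. By library totals, neither Atp5a1 nor Atp5f1 passed. Atp5a1 did not pass without Mock replicate 1, 3 or 4 or GC7 replicate 4, nor Atp5f1 without Mock replicate 1 or GC7 replicate 1, 2 or 4 or with the replicate block.

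The c ring is encoded by 3 genes that give the same mature protein. Atp5g2 had 381, 436, 377 and 379 CPM in Mock and 453, 437, 528 and 480.0 CPM in GC7. The GC7 libraries were just above the highest Mock library, and the log2 fold change was 0.27 (SE 0.077, adjusted p = 0.00912). Atp5g1 had 76.9, 89.8, 67.4 and 70.8 CPM in Mock and 89.5, 98.6, 83.0 and 102 CPM in GC7, overlapping, at 0.29 (SE 0.095, adjusted p = 0.0184). Atp5g3 had 204, 247, 193 and 199 CPM in Mock and 207, 201, 185 and 211 CPM in GC7, also overlapping, at -0.068 (SE 0.082, adjusted p = 0.493). Within each library the make-up shifted, as the Atp5g2 share of the 3 went from 57.9% ± 1.20 to 61.6% ± 3.16 and the Atp5g3 share from 30.9% ± 0.754 to 26.2% ± 2.00 (SD, n = 4, exact permutation p = 0.0286 and adjusted p = 0.0429 for each). The Atp5g1 share was 11.2% ± 0.523 in Mock and 12.2% ± 1.30 in GC7 (n = 4, exact permutation p = 0.229). Counts on near-identical copies came to 71.6% of those on Atp5g2 itself, so its level is uncertain. With the copies added the log2 fold change was 0.29 and passed, but Atp5g2 did not pass under RLE factors, TMM without mitochondrially encoded genes, filterByExpr or the replicate block (adjusted p = 0.0228). Nor did it pass when any 1 of 6 libraries was left out, Mock replicates 1, 3 and 4 and GC7 replicates 1, 3 and 4 (0.21 without GC7 replicate 3). The difference in its share, 3.76 percentage points, was 2.21 without GC7 replicate 3.

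Atp5l, a membrane-sector subunit at which synthase dimers form, had 87.0, 111, 93.7 and 94.2 CPM in Mock and 119, 116, 120.4 and 120.1 CPM in GC7. It rose without overlap, at 0.30 (SE 0.074, adjusted p = 0.00404), and copies of it held 32.8% as many counts. Atp5s, also called factor B or Dmac2l and needed for coupling, had 6.10, 7.27, 6.99 and 6.06 CPM in Mock and 8.81, 8.06, 12.1 and 11.8 CPM in GC7. It rose too, at 0.62 (SE 0.15, adjusted p = 0.00301). Atp5l did not pass when any 1 of the same 6 libraries was left out, and Atp5s not without Mock replicate 1 or 4 or GC7 replicate 3 (0.53, adjusted p = 0.0106) or 4. The other membrane-sector subunits, Atp5k, Atp5j2 and Atp5mpl, were at -0.23, -0.086 and -0.014 and did not pass.

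Other genes of the pathway were taken from lists that the symbol rule does not cover. Of 9 further complex I assembly factors, none was lower and 3 were higher, with a median of 0.16 and Tmem186 the highest at 0.50. Of 6 complex III assembly factors 1 was lower (Uqcc3, -0.49) and 2 were higher, Lyrm7, which chaperones the Rieske protein, at 1.07 (adjusted p = 0.000211). Of 19 complex IV assembly factors tested 1 was lower and 5 were higher, with a median of 0.19 and Sco1, a copper chaperone, the highest at 0.62. These shares, like those of the member assembly factors, can be read beside the 23% of all genes that were higher. They came to 33.3%, 33.3% and 26.3%, against 42.9% of the members' assembly factors.

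The 13 subunits encoded by mitochondrial DNA behaved otherwise, since all 13 fell by more than 2-fold, from -1.58 for mt-Nd3 to -5.27 for mt-Co1, with a median of -2.94. Together they held 17082 to 18284 CPM in Mock and 1144 to 1427 CPM in GC7. Among nuclear members the lowest values were -1.37 for Cox7a1 and -1.01 for Ndufv3. Of 77 mitochondrial ribosomal protein genes tested 10 were lower (13.0%) and 12 higher (15.6%), with a median of -0.017 and Mrps6 the highest at 1.11. Of 14 tricarboxylic acid cycle enzymes 2 were lower (14.3%) and 1 higher (7.14%), with a median of -0.059. Like those of the members, these shares were below the 23.5% lower and 23% higher of all genes. Of 13 coenzyme Q synthesis genes 3 were lower and 3 higher (23.1% each), Coq10b the highest at 0.89. Of 6 genes for ATP synthase assembly, inhibition and nucleotide or phosphate exchange 1 was lower (16.7%, Slc25a4 at -0.43) and 3 were higher (50.0%). Among 15 regulators of respiratory genes 5 were lower (33.3%), Myc the most at -0.85. Another 3 were higher (20.0%), Pprc1, a coactivator of NRF1, the most at 0.81.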

How the data were processed

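The members and the gene lists were chosen with earlier results of these data known. After trimming with Cutadapt, the authors aligned the paired reads to GRCm38 using STAR and assigned them to Ensembl genes using featureCounts. The deposited values are raw counts, unnormalised and unpooled, with a table for every library. Strand and multi-mapping settings are not given in the sources used here.

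All 4 Mock and 4 GC7 libraries, described as biological replicates, were used, grouped by their labels. P-values set the difference between the groups against the spread between these libraries. The expression filter required over 3 CPM in 4 or more libraries. Log2 fold changes, their SE and adjusted p-values came from edgeR (version 4.0.16, R version 4.3.3), as TMM factors, a group term and quasi-likelihood F tests, adjusted by Benjamini-Hochberg over 11189 genes. CPM values are TMM-scaled. On simulated counts with 200 changed genes, the test called 50 of 65 genes changed 1.5-fold and 64 of 67 changed 2-fold. In the data 2635 genes were lower and 2579 higher, which makes the adjusted threshold less strict, so these rates do not carry over to the data. Libraries held 17528776 to 25284730 counts, and some changes of 1.5-fold were missed in the simulation.

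Isoform shares were compared by two-sided exact permutation over 70 regroupings. Classes follow known roles. Values are given per library for members past the FDR and 2-fold, for the lowest and highest tested member of each complex and class, for Cycs and for isoform pairs, and as the log2 fold change or a range for others. Copies were sought with BLAST (version 2.17.0; matches of at least 200 bases and 90% identity). Same-numbered replicates did not deviate together throughout (correlations 0.27, -0.12, 0.20 and -0.18), so no pairing was assumed. Alternatives were RLE factors, library totals, TMM without mitochondrially encoded genes, other filters, DESeq2 (version 1.42.0), limma-voom (limma version 3.58.1), a replicate block, an FDR of 0.05, summed copies and each library left out. The result of 1 item is not reported here.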

Additional observations from a re-analysis of the deposited data

Results flagged for a closer look

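In groups of 4 libraries, the gap between the highest or lowest library and its nearest neighbour was divided by the whole range of the group and compared with Dixon's critical value for 4 samples. Of 84 groups examined, 13 passed, where about 1 in 20, or 4.2, would pass by chance if the groups were independent. They were not, since all draw on the same libraries and the medians include genes also examined singly. In 10 of the 13 the library that stood apart was Mock replicate 2, always as the highest. For single genes in Mock these ratios were 0.928 for Ndufv3, 0.844 for Uqcrc1, 0.899 for Uqcrq, 0.833 for Cox6b1, 0.894 for Cox7a2, 0.905 for Cox7c, 0.874 for Cox7a1 and 0.943 for Atp5g2. For the median level in Mock they were 0.918 over all tested members and 0.907 over the subunits with cytochrome c. Mock replicate 2 also had the most counts, 25284730, and the lowest TMM factor, 0.935, and their part in its higher values was not tested.

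In GC7, replicate 4 was the lowest for Sdhaf1 (ratio 0.833, at 6.14 CPM against 6.42 to 6.47 CPM), replicate 1 the lowest for Cox6a2 (0.833, at 51.5 CPM against 65.2 to 68.0 CPM), and replicate 3 the highest for the Atp5g2 share of c-ring counts (0.835, at 66.3% against 59.3% to 60.5%).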

How the results depend on the processing

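With 15 members lower and 13 higher as the reported counts, RLE factors gave 15 and 12, TMM without mitochondrially encoded genes 15 and 12, filterByExpr 16 and 12, DESeq2 18 and 15, limma-voom 15 and 13, no filter 20 and 17, and copies summed 15 and 13. The higher count moved to 22 under library totals (10 lower), to 30 without Mock replicate 2 (16 lower), and to 31 without Mock replicate 2 and GC7 replicate 3 together (21 lower), an alternative chosen after seeing the data. In the same order, 23.4%, 31.9% and 33.0% of the members were higher, against 29.9%, 25.5% and 28.8% of all genes. Library totals shift the median of all genes to 0.11 and that of the members to 0.087. At an FDR of 0.05, 23 were lower and 20 higher, and the share of all genes at that threshold is not given here. Leaving out each library in turn gave 13 to 16 lower and 9 to 30 higher members, 1 to 2 and 3 to 4 of them by more than 2-fold, and a median of -0.057 to 0.085. Members lower by more than 2-fold numbered 1 in place of 2 under library totals, without Mock replicate 2, without GC7 replicate 1 and without Mock replicate 2 and GC7 replicate 3. They numbered 3 under filterByExpr and without a filter, where Cox4i2 was tested and passed at -2.69. Members higher by more than 2-fold numbered 5 in place of 3 under library totals. With the replicate number as a block, 14 members were lower and 14 higher, 2 and 3 by more than 2-fold, and the median was -0.0022. Since the numbers did not pair the samples, this fit does not replace the one without the block.

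Of the 28 members that passed, 21 passed again without each library in turn, and Atp5a1, Atp5f1, Atp5g2, Atp5l, Atp5s, Ndufa12 and Ndufb8 did not. None of the 28 turned its sign in an alternative, and 23 of the 66 that had not passed did in at least 1. Sdhb became 0.043 under library totals, 0.024 without Mock replicate 2 and 0.020 without both libraries. Cox7a2 became 0.077, 0.085 and 0.062 in the same settings and 0.0085 without GC7 replicate 1. Atp5g3 became 0.029, 0.020 and 0.059, and Ndufs8 -0.013 without Mock replicate 3. With each library left out in turn, Ndufs8 ranged from -0.013 to 0.12, Sdhb from -0.11 to 0.024, Cox7a2 from -0.070 to 0.085 and Atp5g3 from -0.12 to 0.020. The cause was not tested. Isoform shares and the medians by complex and of core subunits, accessory subunits and assembly factors moved by less than the spread between libraries in each alternative. The medians over all members, over accessory subunits and over complexes I, II, IV and V nevertheless changed sign in some. In that order they ranged over all alternatives from -0.057 to 0.087, -0.070 to 0.085, -0.026 to 0.11, -0.011 to 0.12, -0.032 to 0.11 and -0.12 to 0.045. The median of the alternative isoforms moved more, because the filter sets which of them are tested. It was 2.23 over 3 tested, 0.42 over 4 with filterByExpr and -0.29 over 6 without a filter. Summing all copies at 90% identity was not run as planned, because repeats in the untranslated ends of Ndufab1 and Ndufaf2 matched unrelated genes. It was narrowed, after seeing the data, to copies matched over at least 50% of their length. Depth limits Cox4i2, Cox8b and Ndufa4l2, which had at most 35 counts in a library.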
